A study of Homo sapiens with 2 samples.

Results

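The genes described are 6 regulators of the cell division cycle: the cyclin genes CCND1, CCND2 and CCNE2, the inhibitor gene CDKN2A, and the phosphatase genes CDKN3 and CDC25C. They were taken by gene symbol from the platform annotation of an expression array, and each is represented by its brightest probe set, a group of probes summarised to 1 value. They are 6 of 14884 named genes in the table. All 6 passed the signal filter, a log2 signal of at least 3.91 on the brighter array, as did 10081 named genes.

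SNK6 is a human NK/T-cell lymphoma line, grown here in medium with 10% serum and 500 U/ml interleukin-2. It was treated for 72 h with romidepsin, which blocks class I histone deacetylases (1 array), or with romidepsin and sildenafil, a phosphodiesterase inhibitor (1 array). The title of that sample gives only a short form of its second drug, read as sildenafil because the protocol names no other. Both groups thus carry romidepsin. The labels name no doses, and cells without romidepsin were not analysed here. With 1 array of 1 line per treatment there is no replicate error, no test was possible, and array and treatment cannot be told apart. Each difference below is with sildenafil minus without, in log2 units. It is relative to the other transcripts, since the deposited columns share nearly 1 distribution.

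Cells pass from G1 into S phase when D-type cyclins with CDK4 or CDK6, and then E-type cyclins with CDK2, phosphorylate the retinoblastoma protein and release E2F transcription factors. The INK4 protein made from CDKN2A blocks CDK4 and CDK6, and a second product of that gene, ARF, restrains MDM2. CDKN3 removes the activating phosphate from CDK2, whereas CDC25C removes inhibitory phosphates from CDK1 at entry into mitosis. Deacetylase inhibitors are known for halting this cycle. Both arrays here carry romidepsin, and whether the cycle of these cells was halted was not tested.

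Promoter sequence is shown for the 2 phosphatase genes because both match the letters of a short element of late cell cycle genes, used below to group other genes. This element, the CHR, was searched as TTTGAA on both strands of RefSeq promoter windows (build GRCh38.p14) that reach 250 bases before and 50 bases after an annotated start. The paired CDE-CHR element was searched as GGCGG followed after 4 bases of any kind by TTTGAA, so it contains the CHR. The 250 bases before the start are printed 5′ to 3′ on the gene's strand. Capitals mark the CDE and CHR letters in CDC25C (chr5:138331805-138332054, minus strand) and the CHR in CDKN3 (chr14:54396757-54397006, plus strand), where it reads TTCAAA because it lies on the opposite strand.
CDC25C: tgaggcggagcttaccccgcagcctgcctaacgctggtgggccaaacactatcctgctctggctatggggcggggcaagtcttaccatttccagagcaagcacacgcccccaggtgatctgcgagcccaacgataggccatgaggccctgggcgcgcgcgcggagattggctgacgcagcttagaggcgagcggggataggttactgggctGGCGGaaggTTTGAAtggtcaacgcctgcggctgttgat
CDKN3: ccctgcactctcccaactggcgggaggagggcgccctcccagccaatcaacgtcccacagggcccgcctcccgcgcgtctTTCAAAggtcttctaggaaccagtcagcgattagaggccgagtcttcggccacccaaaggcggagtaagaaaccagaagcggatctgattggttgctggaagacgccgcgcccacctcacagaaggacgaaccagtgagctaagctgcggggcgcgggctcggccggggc
The CDC25C element begins at position -39 and its CHR letters at -30 from this start, the first transcribed base being 1. Of 4 CDC25C windows in the table, another has its start further upstream, which places the same element at position 35. The CDKN3 match begins at position -170 and has the CHR letters without a CDE. Those letters were in 15.2% of all windows, and whether they act in CDKN3 was not tested. The 2 CDKN2A windows held neither element, and CCND1, CCND2 and CCNE2 were not searched.

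Among the 6 genes the log2 differences between the arrays ran from -0.44 to 0.33. CCND1, CCND2 and CDKN2A had higher signals with sildenafil and CCNE2, CDKN3 and CDC25C lower ones, and these directions were the same under the 3 other scalings tried. None of the 6 reached 1.5-fold in either direction, beside 1.99% of all named genes past the filter (1.02% higher and 0.972% lower). With so small a share, 6 genes are too few for this count to set them apart from other genes. At a smaller log2 difference of 0.322, CCND1 was higher and CCNE2 lower, beside 6.69% of all genes higher and 6.04% lower. CCND1 reached this level only as scaled in the deposit, at 0.328. Under median, quantile and lowess scaling it was at 0.307, 0.308 and 0.289. The median of the 6 absolute differences was 0.25 on the log2 scale, and that of all genes past the filter was 0.12. The 6 genes were picked with earlier results of these arrays known, so this contrast describes the choice and supports nothing.

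**Figure D1:**
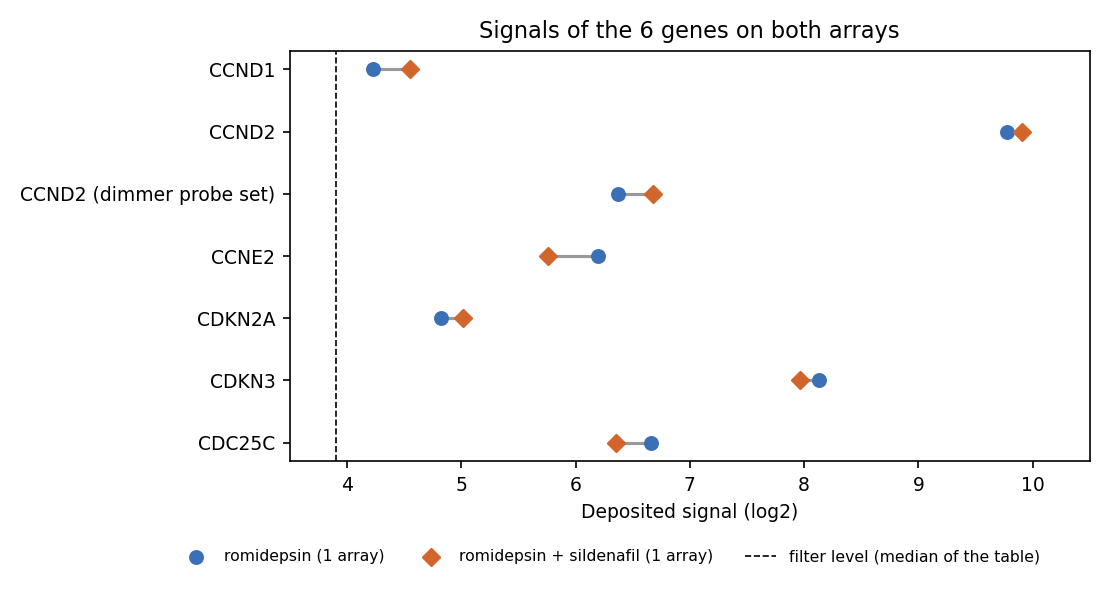
Deposited log2 signal (horizontal axis) of the 7 probe sets of the 6 genes; circles are the romidepsin array, diamonds the array with sildenafil added, and the dashed line is the filter level of 3.91. CCND1, both CCND2 probe sets and CDKN2A lie further right with sildenafil, and CCNE2, CDKN3 and CDC25C further left; signals of different genes are not comparable, since probes differ in brightness.

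Of the D-type cyclins, which carry growth factor signals to the cycle, CCND1 and CCND2 had higher signals with sildenafil and CCND3 a slightly lower one. CCND1 (cyclin D1) measured 4.23 without and 4.55 with sildenafil on the log2 scale, a difference of 0.33 (1.26-fold). Its romidepsin signal lay only 0.32 above the filter level, and it was the gene nearest to that level of the 6. To set such a value against the scatter between the arrays, each gene was compared with the 500 named genes nearest to it in mean signal. Those near CCND1 differed with an SD of 0.24, and 93 of the 500 (18.6%) differed at least as much in either direction. The CCND1 difference thus lay within the range common at its signal.

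CCND2 (cyclin D2) was bright on both arrays, at 9.78 without and 9.91 with sildenafil. The difference of 0.13 (1.10-fold) was the smallest of the 6. Genes of that brightness scattered less, with an SD of 0.12. Of 500 such genes, 106 (21.2%) differed at least as much in either direction and 25 (5%) were at least as high. CCND2 was the only one of the 6 with a second, dimmer probe set, which measured 6.37 without and 6.68 with sildenafil. That probe set differed by 0.31, and 36 of the 500 genes nearest to it (7.20%) differed at least as much. Both probe sets were thus higher with sildenafil, with a mean difference of 0.22, but the sizes differed more than 1.5 times. CCND2-AS1, which overlaps CCND2 in RefSeq, was not analysed here.

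Agreement in direction between probe sets of a gene was not the rule on these arrays. Among 370 named genes whose 2 brightest probe sets both had a mean signal past the filter and differed in value, 195 pairs (52.7%) lay on the same side of 0. The 2 differences of a gene lay a median of 0.17 apart, and the gap of CCND2 was 0.18. The difference of the brighter CCND2 probe set, 0.13, was smaller than this median gap, and that of CDKN3, -0.17, about the same size. The other 4 genes exceeded the median gap, each resting on 1 probe set. The 90th percentile of these gaps, 0.446, was larger than the difference of any of the 6 genes, CCNE2 included. The pairs were not matched in signal to the 6 genes, and scatter narrows as signal grows. The gaps therefore need not hold for bright genes such as CDKN3 and CCND2.

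The remaining D cyclin and the partner kinases had smaller differences than CCND2. CCND3 (cyclin D3) was at -0.05, CDK4 at -0.12 and CDK6 at 0.06. Of the 5 genes of this list, CCND1 and CCND2 included, 3 were higher and 2 lower. The higher ones were CCND1, CCND2 and CDK6, so the split rests in part on the chosen genes. The median of the 5 was 0.06, against -0.01 over all genes past the filter.

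CCNE2 (cyclin E2), which activates CDK2 at the start of S phase, had the largest difference of the 6. Its log2 signal was 6.19 without and 5.76 with sildenafil, a difference of -0.44 (1.35-fold lower). Of the 500 genes of like signal, whose SD was 0.20, 19 (3.80%) differed at least as much in either direction and 15 were at least as low. The value lay just inside the central 95% of those genes, which ran from -0.45 to 0.35. Over all 10081 genes 589 (5.84%) differed by as much or more. INTS8, a neighbour that overlaps CCNE2 in RefSeq, measured 6.52 without and 6.40 with sildenafil.

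Its paralog and partners did not share this size. CCNE1 (cyclin E1) was at 0.07, the opposite sign. CDK2 was at 0.01 and the S phase cyclin CCNA2 at -0.05, both with signs that turned under other scalings. Of 19 measured S phase genes driven by E2F, CCNE2 among them, 10 were higher and 9 lower, none by 1.5-fold. TYMS (thymidylate synthase) was at -0.17, the licensing factor CDT1 at 0.16, the helicase subunit MCM2 at -0.13 and MCM5 at 0.12. Their median of 0.02 turned to -0.00 when each array was centred on its median.

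CDKN2A, the 1 measured member of 7 listed inhibitors of cyclin-dependent kinases, was slightly higher with sildenafil. It measured 4.82 without and 5.02 with sildenafil, a difference of 0.20 (1.15-fold). Genes of like signal had an SD of 0.26, wider than this difference, and 200 of 500 (40%) differed at least as much. CDKN2A had the smallest difference of the 6 relative to that SD (0.76 times). Its probe set was annotated to 1 transcript of the gene (NM_001195132), and the table does not separate INK4 from ARF products. The antisense genes CDKN2A-AS1 (3.75 without and 3.87 with sildenafil) and CDKN2B-AS1 (3.48 and 3.56), which overlap CDKN2A in RefSeq, were below the filter on both arrays. The strand that each probe set reads is not stated in the labels. CDKN1A, CDKN1B, CDKN1C, CDKN2B, CDKN2C and CDKN2D were not analysed here.

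Regulators of CDKN2A and partners of ARF differed little. Of 7 measured, 1 was higher and 6 lower, with a median of -0.05 that became 0.03 under quantile normalization. That scaling also moved the median of all genes past the filter, from -0.01 to 0.02. The demethylase KDM6B was at -0.15, the p53 inhibitor MDM4 at -0.11 and the polycomb protein CBX7 at -0.08. EZH2, the polycomb methyltransferase, was at -0.05 and had the opposite sign under quantile normalization.

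The phosphatase genes CDKN3 and CDC25C had lower signals with sildenafil. CDKN3 measured 8.13 without and 7.96 with sildenafil, a difference of -0.17 (1.12-fold lower). Genes near it had an SD of 0.13, and 72 of 500 (14.4%) differed at least as much. CDC25C measured 6.66 without and 6.36 with sildenafil, a difference of -0.30 (1.24-fold lower). For CDC25C the SD was 0.17, with 41 of 500 (8.20%) differing at least as much. Relative to the SD of genes of like signal, only CCNE2 of the 6 had a larger difference than CDC25C. The absolute differences of CCNE2 and CDC25C were 2.17 and 1.83 times that SD.

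CDC25A and CDC25B, paralogs of CDC25C, were at 0.03 and 0.01, and the sign of CDC25B turned with median centring. WEE1, the kinase that adds the phosphates CDC25 enzymes remove, was also at 0.03. In this list of 7 measured genes, CDC14B, a phosphatase of mitotic exit, was the only one past 1.5-fold. It measured 4.43 without and 3.80 with sildenafil, a difference of -0.63, and passed the filter on the romidepsin array alone. Its second probe set, below the filter, was at 0.09. CDK1, the kinase that CDC25C activates, was at -0.17, CCNB2 at -0.12 and CCNB1 at 0.04. CHEK2, a checkpoint kinase that inhibits CDC25C, was at -0.39 (4.92 without and 4.53 with sildenafil), whereas CHEK1 was at -0.02 with a sign that turned under other scalings. Both CHEK2 probe sets were lower with sildenafil, the dimmer one below the filter. SFN, the 1 measured gene of the 14-3-3 family, some of whose proteins hold CDC25C in the cytoplasm, was at -0.21.

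**Figure D2:**
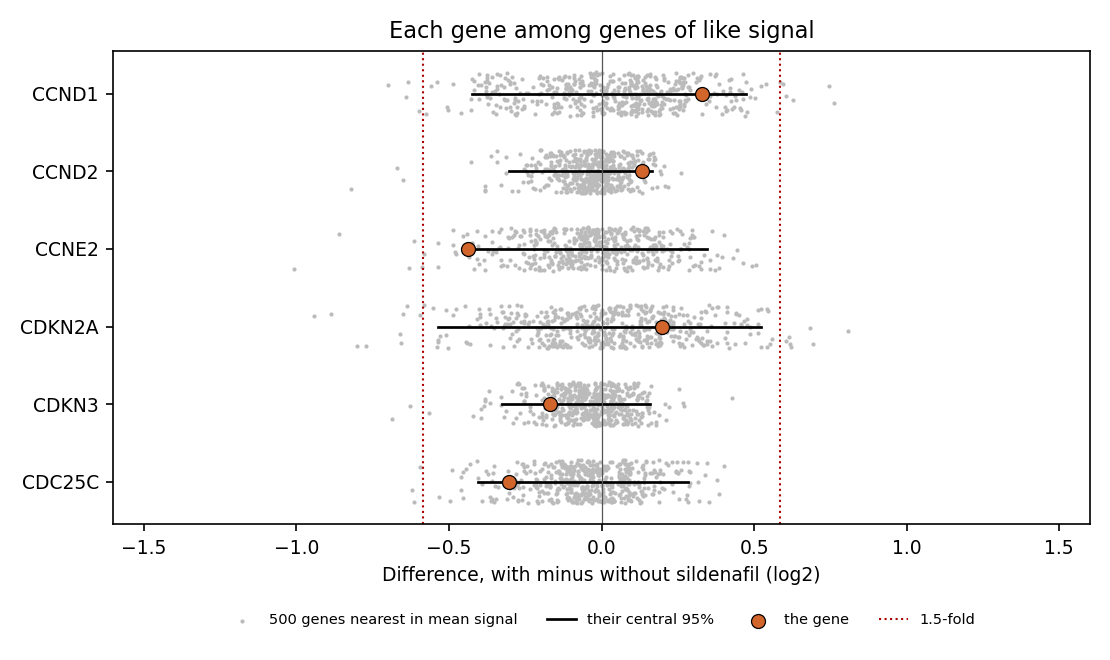
Each of the 6 genes (large point) among the 500 named genes nearest to it in mean signal (small points, spread vertically for visibility); the horizontal axis is the log2 difference with minus without sildenafil, bars span the central 95% of the 500 genes and dotted lines mark 1.5-fold. All 6 points lie inside their bars, with CCNE2 at -0.44 nearest to the end of its bar. Each point is the brightest probe set of its gene, so the dimmer CCND2 probe set is not shown.

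The promoter elements printed above were used to describe the genes that hold them, CDC25C and CDKN3 included. The CDE-CHR pair was found in 18 of 35116 promoter windows (0.0513%), and 10 named genes past the filter held it. Their differences had a median of -0.04, with 4 higher and 6 lower and none at 1.5-fold, and without CDC25C 4 were higher and 5 lower. CDC25C was the lowest of the 10, followed by SKA1 (-0.17), a spindle protein, and CDCA3 (-0.14). CKS1B, a cyclin kinase subunit, was at -0.04, and the DNA repair gene UNG at 0.14. MSH5-SAPCD1, a readthrough transcript, was the highest at 0.49. The CHR alone, which includes these genes and is common by its shortness, was in 15.2% of windows and in 1033 of 7676 genes past the filter with a window. The CHR genes had a median of -0.02, near the -0.01 of all 7676, and it was above 0 under quantile and lowess scaling. Past 1.5-fold lay 12 CHR genes higher and 1 lower, against 57 and 40 of the 7676. E2F sites, searched as TTTCGCGC or TTTGGCGC on both strands, were in 1.15% of windows. The 166 genes with one had a median of -0.04, which was also above 0 under those scalings, with 2 at least 1.5-fold higher and 1 lower.

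Around the 6 genes, the wider set of cell cycle genes was close to equal on the arrays. Of 160 other listed genes 114 were named and past the filter, 45 of them higher and 69 lower with sildenafil. Over all genes past the filter 4757 were higher and 5282 lower. The listed genes' split turned to 65 higher and 48 lower under quantile normalization and to 59 and 55 under lowess scaling, so it has no settled direction. The split of all genes past the filter turned likewise, to 5595 higher and 4476 lower and to 5203 and 4858. The median of the listed genes was -0.03, or 0.02 and 0.00 under those scalings. That of all genes past the filter was -0.01, or 0.02 and 0.01. Of the listed genes, CDC14B alone reached 1.5-fold. At a log2 difference of 0.322, 0 were higher and 4 lower, namely CDC14B, CHEK2, CDK10 (-0.48) and CDK20 (-0.45), beside 6.69% of all genes higher and 6.04% lower. The latter kinases, CDK10 and CDK20, were listed among other CDKs and not with the partner kinases of the D, E and A cyclins. CDC14B (3.80) and CDK20 (3.84) were below the filter level with sildenafil, so they passed the filter on the romidepsin array alone. CDK9, at 0.321, lay just under the threshold of 0.322. Under quantile and lowess scaling CDK9 and TFDP1 were past that threshold upward. Of the 500 genes of like signal, 2.20% differed at least as much as CDK10, 10.2% as much as CDK20, 10.8% as much as CHEK2 and 3% as much as CDC14B.

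By role, the 10 measured pocket proteins, E2F and DP factors had a median of 0.05, with 6 higher and 4 lower. TFDP1, a partner with which many E2F factors bind DNA, was at 0.29, E2F2 at 0.19, TFDP2 at -0.13 and RBL2 at -0.12. RB1, the retinoblastoma gene, was at -0.06 and E2F1 at 0.08. Of the 8 genes of the DREAM and MMB complexes, which repress or activate CHR genes, 1 was higher and 7 lower, with a median of -0.04 that was 0.00 under quantile normalization. LIN9 was at -0.27, LIN52 at -0.16 and MYBL1 at -0.13.

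The 9 measured G2/M cyclins, kinases and checkpoint genes had a median of -0.05, which became 0.02 under quantile normalization, with 2 higher and 7 lower. The mitotic kinase AURKA was at -0.14. Both measured genes of the CDK-activating kinase were lower, CCNH at -0.22 and CDK7 at -0.14. Of 20 genes for the turnover of cyclins and CDK inhibitors 7 were higher and 13 lower, with SKP1, a subunit of the SCF ubiquitin ligase, at -0.319, FZR1 at -0.18 and CKS2 at -0.17. Their median of -0.05 turned to 0.01 under quantile normalization. Among 16 other cyclins 6 were higher and 10 lower, with a median of -0.05, and CCNG1 was at -0.28, CCNJ at -0.22 and CCNC at -0.20. Among 13 other CDKs 6 were higher and 7 lower. CDK9, the transcriptional kinase, was at 0.321, and the median of this list, -0.02, changed sign under quantile and lowess scaling and with no filter.

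**Figure D3:**
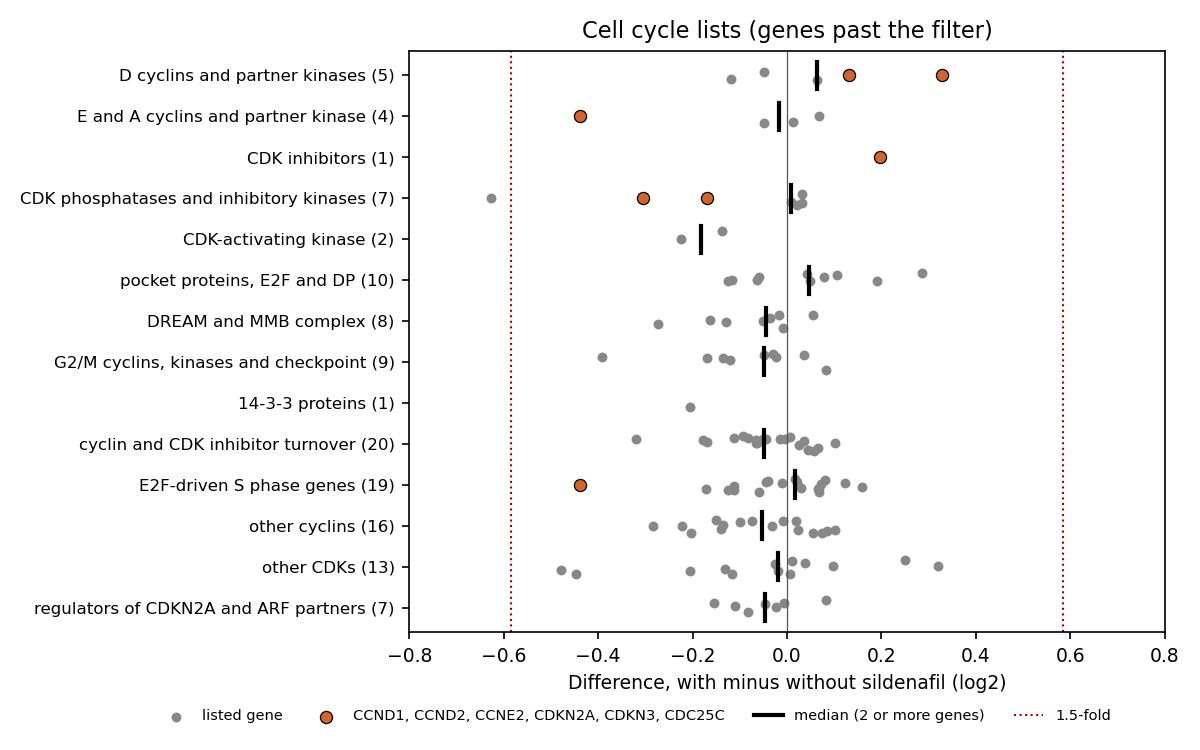
Log2 difference with minus without sildenafil (horizontal axis) of the listed cell cycle genes past the filter, by list, with the number of genes in brackets; large points are the 6 genes, bars are list medians and dotted lines mark 1.5-fold. CDC14B at -0.63, past the filter on the romidepsin array alone, is the only point beyond 1.5-fold. All medians of lists with more than 2 genes lie between -0.05 and 0.06.

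The label of the cells was checked against markers fixed for it. Of 16 listed NK and T cell markers 9 were named. All 9 passed the filter, GNLY barely and on 1 array alone (3.82 without and 3.92 with sildenafil). The largest differences were NCR2 at 0.38 (4.79 and 5.16) and NKG7 at -0.27 (8.50 and 8.23), and NCR3 was dim, at 4.70 and 4.69. Bright markers were PRF1 (8.83 without and 8.81 with sildenafil), CD2 (8.10 on both arrays) and NCAM1 (6.63 and 6.54). NCR1 measured 6.23 without and 6.22 with sildenafil, and CD7 5.15 and 5.21. Of markers of other cells, CD14 and LYZ were below the filter, whereas VSIG4 (-0.42), CSF1R (0.27) and CD68 (-0.11) passed it. CD68 measured 6.72 without and 6.61 with sildenafil, above the values of NCAM1. PAX5 and BLK of B cells lay between 5.05 and 5.23, above the values of NCR3 and GNLY, though levels of different probe sets are not comparable. Of the keratins, KRT18 was at 7.04 without and 7.38 with sildenafil, KRT8 differed by -0.30 and KRT19 by -0.26. VSIG4 (3.88) and KRT19 (3.86) were below the filter level with sildenafil and passed the filter on the romidepsin array alone. Of these lists, 2 of 2 B cell, 3 of 6 monocyte and 3 of 5 fibroblast and epithelial markers that were named passed the filter, with none past 1.5-fold. Their part in the differences of the 6 genes was not tested.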

How the data were processed

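Per the labels' protocols, total RNA of 2 SNK6 samples went through whole-transcript amplification and biotin labelling. The deposited table holds log2 signals of 53617 probe sets; its log base was inferred from a highest value of 13.05, above the natural log of a 16-bit ceiling (11.1). How the authors summarised, background-corrected and normalized these values is not given in the sources used here. Depth does not apply; the number of arrays limits precision. The platform annotation named 16098 probe sets by 1 gene, 0 by several, and 37519 are unnamed here. All 6 Entrez identifiers matched RefSeq.

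The brightest probe set stood for a gene. The filter level is the table's median. Genes were counted at 1.5-fold, and at a log2 difference of 0.322 as an addition. Named genes are the 6, their paralogs and partners, and in each list those past 1.5-fold and the 3 largest; other genes, including some markers and those with promoter elements, were named after their values were seen. The 6 genes and the lists were chosen with earlier results of these data known. Alternatives changed scaling (median centring, quantile, lowess with span 0.3), filter, probe set handling, threshold and the number of neighbours. Scripts were tested on simulated data and used Python 3.11.15, numpy 2.4.6, pandas 2.3.3 and statsmodels 0.14.6.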

Additional observations from a re-analysis of the deposited data

How the results depend on the processing

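The directions of all 6 genes were the same under every scaling and probe set alternative tried, with CCNE2 between -0.46 and -0.39, CDC25C between -0.33 and -0.26, CCND1 between 0.29 and 0.33 and CDKN3 between -0.19 and -0.11 over the scalings. The dimmer CCND2 probe set, added after seeing the data, gave 0.31. The share of genes of like signal that differed at least as much moved for CCND2 to 9.40% (quantile), 11.2% (lowess) and 9.20% (mean of probe sets). For CCNE2 and CDC25C it moved to 5.80% and 12.8% under quantile normalization, and for CDKN3 to 31.8% (quantile) and 26.8% (lowess). Named genes at least 1.5-fold higher or lower numbered 103 and 98, but 223 and 156 with no filter; at a log2 difference of 0.322 there were 674 and 609, and at 2-fold 9 and 9. Other listed cell cycle genes at 1.5-fold numbered 1, but 0 with probe sets averaged and 2 with no filter. At 0.322 they numbered 4, all lower, but 7 under quantile and 7 under lowess scaling. The genes added under both scalings were CDK9 and TFDP1, higher, and SKP1, lower. The median of the CDK-activating kinase genes moved from -0.18 to -0.12 under quantile normalization. List medians moved by at most 0.07 and changed sign in 11 of 84 alternatives. The median of all genes past the filter moved too. It was -0.01 as deposited, -0.03 with median centring, 0.02 under quantile and 0.01 under lowess scaling. The causes were not tested. No paired analysis was possible because each treatment has 1 array. Detection calls were not used here, so how far CCND1, the dimmest of the 6, stands above background is unknown.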

Other observations

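In the list of other CDKs, the differences of the 13 genes past the filter had an SD of 0.23. Those of the 16 other cyclins had an SD of 0.12, and this contrast was not tested. CDK9, which releases paused RNA polymerase II, was 0.321 higher with sildenafil (7.24 without and 7.56 with), and 16 of the 500 genes of like signal (3.20%) differed at least as much. CDK10 measured 5.96 without and 5.48 with sildenafil, and CDK20 4.28 and 3.84. Of the genes of like signal 2.20% and 10.2% differed at least as much, and CDK20 passed the filter on the romidepsin array alone. CDK15 was below the filter on both arrays, at 2.42 without and 3.16 with sildenafil. CCNG1, cyclin G1, measured 8.73 without and 8.44 with sildenafil, and 17 of 500 genes of like signal (3.40%) differed at least as much. TFDP1 measured 6.62 without and 6.91 with sildenafil, where 33 of 500 (6.60%) did. Whether these values would recur in other cultures cannot be seen from 1 array per treatment.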
